A study of Mus musculus with 18 samples.

Results

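Neutrophils store the proteins with which they kill and digest microbes in granules, and they make these proteins in a fixed order as they mature in bone marrow. Azurophil granule genes such as Mpo and Elane are transcribed first, in promyelocytes. Specific granule genes such as Ltf, Camp, Ngp and Lcn2 follow, and gelatinase granule genes come later, while the cytosolic calcium-binding pair S100a8 and S100a9 stays abundant in mature cells. Motor neurons (MNs) and the other cells of the healthy spinal cord are not known as a source of most of these transcripts, though reactive astrocytes can make Lcn2.

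The 10 genes described here (S100a8, S100a9, Ngp, Camp, Ltf, Lcn2, Mmp8, Elane, Mpo and Retnlg) were looked for by symbol among the 27179 genes of 4 deposited tables and the 35729 transcripts of the mutant table, and all 10 were found in each. They were chosen by values measured in these same data, since neutrophil genes as a list differed between brachial and other p8 samples. That regional difference is therefore part of the choice and is given below as a description only.

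The 18 samples are mouse spinal MNs isolated by FACS. At p8, tdTomato-positive cells of ChatIRESCre::Ai9 mice were taken from brachial, thoracic and lumbar cord (3 samples each, genotype given as wild type), and at e12.5, Mnx1-GFP-positive cells were taken from brachial cord of Olig2Cre::Hoxc8 fl/fl mice (Hoxc8 MNΔearly, 3 samples) and of controls (6 samples, given as wild type). The authors describe the control of the mutant comparison as Hoxc8 fl/fl, and took partly different cord segments for it than for the stage comparison. Which of the 6 controls this covers is not given in the labels. Several cords were pooled per sample, Cre from the Olig2 locus acts in MN progenitors and in other cells of that lineage, and Chat-driven Cre also marks cholinergic neurons other than MNs. The regional tables cover p8 brachial, thoracic and lumbar samples, the stage table e12.5 and p8 brachial samples, and the mutant table e12.5 control and Hoxc8 MNΔearly samples.

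Each table gives a base mean per gene, which is the average over all its libraries of reads scaled by a size factor, the relative depth of a library. The 3 regional tables hold the same base means. A base mean is a sum of whole reads, each worth a fixed step per library. The steps were recovered from genes with few reads, which showed 9 libraries in the regional tables, 9 in the stage table and 6 in the mutant table. Reads could be assigned to libraries for all 2326, 3119 and 3251 features with low base means in these tables. In turn, 3 libraries of the regional tables had the same reads as 3 libraries of the stage table in every one of the 620, 159 and 3 genes compared, against at most 7.28% for any other pair. By the titles of the tables only p8 brachial samples are in both, and these libraries are called A, B and C. Likewise 3 libraries of the mutant table matched libraries of the stage table at 84.6% to 89.5% of features (at most 12.4% for any other pair), and 18 distinct libraries resulted. No library was tied to a named sample or replicate, so the values below are descriptions without a test between groups.

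Depth differed widely at p8. The size factors of libraries A, B and C in the regional tables were 2.39, 1.72 and 0.160, and the other 6 lay between 0.228 and 2.74. In the mutant table they lay between 0.910 and 1.17. As a check of the sorted cells, MN genes were set beside the e12.5 pool of the mutant table, which was normalised separately. The p8 base mean was 14.1 for Chat, which makes acetylcholine, and 23.5 for Slc18a3, its vesicular transporter, against 253 and 801 at e12.5. Other MN genes were higher at p8 than these: Slc5a7 had 165 against 282 at e12.5. Prph had 443 at p8 and is listed at 0 in the mutant table, where it has 3 transcripts. Cnp, a myelin enzyme gene of oligodendrocytes, had a p8 base mean of 157578. In bulk samples, fewer cells of a type and less RNA per cell cannot be told apart.

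To show what the members share outside the rule, the 250 bases before the start of each gene (RefSeq, GRCm38.p6, found for all 10) were searched on both strands for TTGCNNAA, a core of the sites of C/EBP factors, and for AGGAAG, a core of PU.1 sites. Both factor families direct granulocyte differentiation. Of the 10 members, 6 (S100a9, Ngp, Ltf, Lcn2, Mmp8 and Retnlg) held TTGCNNAA, against 9.56% of all 32851 promoters, and 7 (S100a8, Camp, Ltf, Lcn2, Mmp8, Elane and Mpo) held AGGAAG, against 29.5% of promoters. A match describes the letters only. Ngp, Ltf and Lcn2 are printed as abundant specific granule genes, and Elane as the azurophil gene whose reads are followed by library below, 5′ to 3′ with matches to either core, on either strand, in capitals.
Ngp, chr9:110419558-110419807, plus strand: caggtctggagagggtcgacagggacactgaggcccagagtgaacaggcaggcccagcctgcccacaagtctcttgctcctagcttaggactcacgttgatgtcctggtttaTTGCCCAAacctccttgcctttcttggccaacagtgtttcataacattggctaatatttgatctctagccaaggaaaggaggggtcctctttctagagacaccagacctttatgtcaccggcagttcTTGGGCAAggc
Ltf, chr9:111019042-111019291, plus strand: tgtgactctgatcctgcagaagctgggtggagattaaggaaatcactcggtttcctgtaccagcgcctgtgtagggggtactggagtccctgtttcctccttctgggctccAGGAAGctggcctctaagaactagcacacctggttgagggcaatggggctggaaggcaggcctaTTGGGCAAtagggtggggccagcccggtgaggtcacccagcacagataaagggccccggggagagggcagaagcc
Lcn2, chr2:32387740-32387989, minus strand: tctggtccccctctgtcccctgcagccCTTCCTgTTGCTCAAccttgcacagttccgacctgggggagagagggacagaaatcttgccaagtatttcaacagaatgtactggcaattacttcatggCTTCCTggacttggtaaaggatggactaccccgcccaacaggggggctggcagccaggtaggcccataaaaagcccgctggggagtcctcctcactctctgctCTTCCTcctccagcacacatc
Elane, chr10:79886062-79886311, plus strand: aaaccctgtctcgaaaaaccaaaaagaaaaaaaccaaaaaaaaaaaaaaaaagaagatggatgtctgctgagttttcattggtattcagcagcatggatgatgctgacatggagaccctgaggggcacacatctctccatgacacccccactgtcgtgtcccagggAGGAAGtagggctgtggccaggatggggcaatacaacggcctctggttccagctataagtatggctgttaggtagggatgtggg
Ngp held 2 matches to TTGCNNAA and none to AGGAAG, Ltf held 1 of each, Lcn2 held 1 and 3, and Elane held none and 1.

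In the p8 pool of 9 libraries, 8 members had high base means and the azurophil pair had low ones. This is a mean over unlike libraries, and the bounds given below place most of it in libraries A, B and C if e12.5 libraries held no reads, so it does not describe every p8 sample. All 10 together made up 1.21% of the summed base means. By base mean alone, 6 members were among the first 100 genes, and the median member stood at percentile 99.7 of genes with reads there. The e12.5 pool of 6 libraries held few reads of any member, and there the 10 genes made up 3.69e-05% of the sum.

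The calcium-binding pair S100a8 and S100a9 forms calprotectin, which starves microbes of metal ions. S100a9 (chromosome 3, 90692630 to 90695721) had a base mean of 47265 in the p8 pool and of 77553 in the stage pool, and it was listed at 0 in the mutant table. S100a8, which lies 22595 bases away (90669071 to 90670034), had 41915 in the p8 pool and 68719 in the stage pool, against 1.61 in the e12.5 pool of the mutant table. The 0 of S100a9 carries little weight, since it has 2 transcripts in that table, and 16.4% of 1792 genes with several transcripts and a stage base mean of at least 1000 are listed at 0 there, against 0.389% of 2573 genes with 1 transcript. The other 9 members have 1 transcript in the table.

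Among specific granule genes, Ngp, a cathelin-family protein, had the highest base mean of all members, with 56279 in the p8 pool and 92330 in the stage pool, against 0.854 in the e12.5 pool. Ltf, which encodes the iron-binding lactoferrin, had 34125 and 56062 in these first pools against 0.513 at e12.5. Camp, the precursor of the antimicrobial peptide CRAMP, had 19129 and 31417 against 0.462. These 3 genes lie on chromosome 9 (Camp 109847377 to 109849456, Ngp 110419808 to 110423012, Ltf 111019292 to 111042766), with 570351 bases between Camp and Ngp and 596279 between Ngp and Ltf. Lcn2 (chromosome 2, 32384637 to 32387739), which binds bacterial siderophores, had 12559 in the p8 pool and 20599 in the stage pool, against 0.688 at e12.5. Mmp8 (chromosome 9, 7558429 to 7568486), neutrophil collagenase, was lower than the other specific granule members, with 3361 and 5493, and had no reads in the mutant table.

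Retnlg (chromosome 16, 48872608 to 48874498), a secreted resistin-like protein of neutrophils, had a base mean of 3207 in the p8 pool and 5245 in the stage pool and no reads in the mutant table. The azurophil members stood apart from all of these. Elane (chromosome 10, 79886312 to 79888216), neutrophil elastase, had 5.33 in the p8 pool and 8.74 in the stage pool, with no reads in the mutant table. Mpo (chromosome 11, 87793784 to 87804412), myeloperoxidase, had 4.07 and 6.99, against 0.811 at e12.5. They stood at percentiles 23.8 and 21.9 of genes with reads at p8.

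Levels of different genes are compared per length. Per kilobase of the longest transcript, the p8 base mean was 91069 for S100a9 and 84166 for S100a8. Ngp followed with 46055, Camp with 25236, Ltf with 12441, Lcn2 with 9141, Retnlg with 5408 and Mmp8 with 1386. Elane had 5.42 and Mpo 1.48 per kilobase, so that the azurophil pair was the lowest on this scale as well. With coding length in place of transcript length only S100a8 and S100a9 changed places. No spread over samples can be given for these pooled levels, and whether neighbours in the order differ could not be tested.

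**Figure D1:**
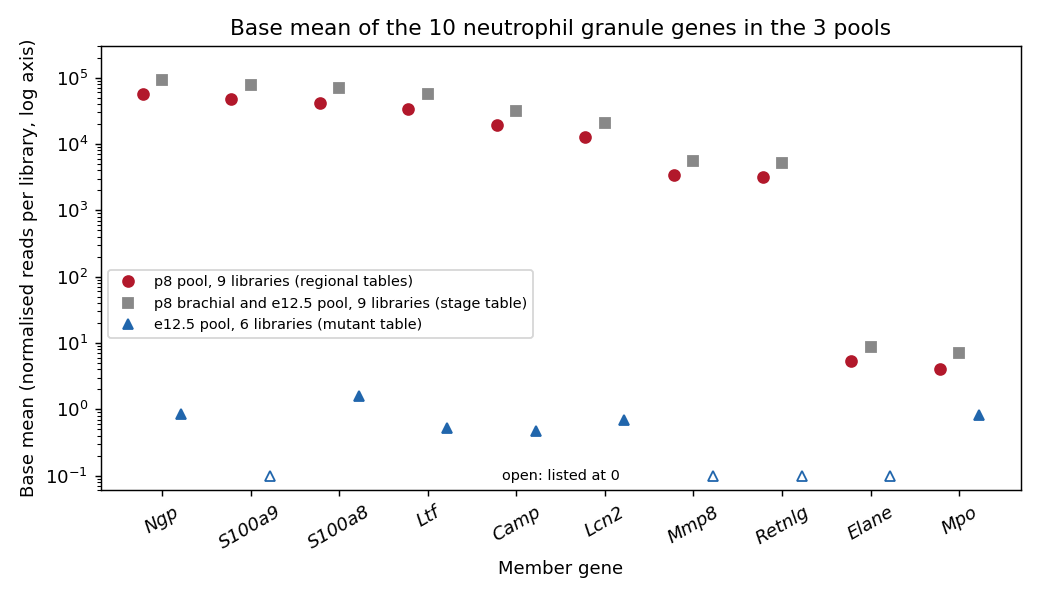
Base mean of each member (vertical log axis, normalised reads per library) in the p8 pool of the regional tables (red circles), the pool of p8 brachial and e12.5 libraries of the stage table (grey squares) and the e12.5 pool of the mutant table (blue triangles, open where the gene is listed at 0). The 8 abundant members lie at or above 3207 in the p8 pool and at or below 1.61 in the e12.5 pool, while Elane and Mpo lie below 10 in every pool.

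To compare the p8 pool with the e12.5 pool, each base mean was divided by the sum of its table, since the tables were normalised separately. The 8 members whose base mean reached 10 in either table were all at least 4-fold higher in the p8 pool, as were 34.6% of the 15075 genes that passed this filter. For S100a9 this rests on the 0 that carries little weight, and the count is 7 without it. All 8 reached 10 in the p8 pool alone, with e12.5 base means at or below 1.61. The filter thus favoured such a count, and nothing is read from it. On this scale the median gene that reached 10 in both tables lay at a log2 ratio of -1.32, and dividing by the median gene instead left the count at 8. Among single members, S100a8 was 19378-fold higher at p8 (95% Poisson interval of the 9 e12.5 reads 10208 to 42378), Ngp 49103-fold (5 reads, 21041 to 151227) and Lcn2 13602-fold (4 reads, 5312 to 49921).

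Camp and Ltf rest on 3 e12.5 reads each, with ratios of 30830 (interval 10549 to 149496) and 49525 (interval 16947 to 240153). Mmp8 and Retnlg had no read in the 6 e12.5 libraries of the mutant table (the 3 e12.5 libraries in the stage table alone could not be read for them), and a floor of 3 reads over the pool gives differences of at least 4558-fold and 4348-fold. Mpo and Elane did not pass the filter. For Mpo the ratio was 3.74 (5 reads, 1.60 to 11.5), and Elane was at least 7.23-fold higher at p8. Neither held without library A, described below, when its reads were left out but the sum of the table was kept. The ratio of Mpo turned to 0.112, and Elane was under the floor of 3 reads (0.549) in both pools. That ratio of Mpo rests on 3 p8 reads in 1 library and 5 e12.5 reads. It has no interval, so a lower level at p8 is not shown. These intervals and floors cover counting error of the e12.5 reads only, and stage cannot be told apart from the sorting reporter or from library A. Against the stage pool, which contains p8 brachial libraries itself, none of the 8 members was 4-fold higher in the regional pool (0.724-fold to 0.761-fold over all 10 members), while 2.26% of all genes that passed the filter were.

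In the mutant table the reads of all members could be assigned to libraries. Over the 10 genes and 6 libraries of the mutant table there were 29 reads, 11 of them in the 3 libraries found in that table alone and 18 in the 3 libraries that are also in the stage table. By the titles of the tables, the first 3 would be Hoxc8 MNΔearly libraries and the other 3 controls. S100a8 had 0, 3 and 0 reads in the first 3 libraries, against 0, 0 and 6 in the other 3. Ngp had none in the first 3, against 1, 0 and 4 in the other 3. Ltf showed the opposite split, with 1, 2 and 0 against none. Mpo had 2, 1 and 0 against 0, 2 and 0. For S100a8, Lcn2 and Mpo both sets contained libraries with and without reads, and single libraries held between 0 and 13 reads of all members. At such counts a difference between the sets was not detectable, and Mmp8, Elane and Retnlg had no read in any of the 6.

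**Figure D2:**
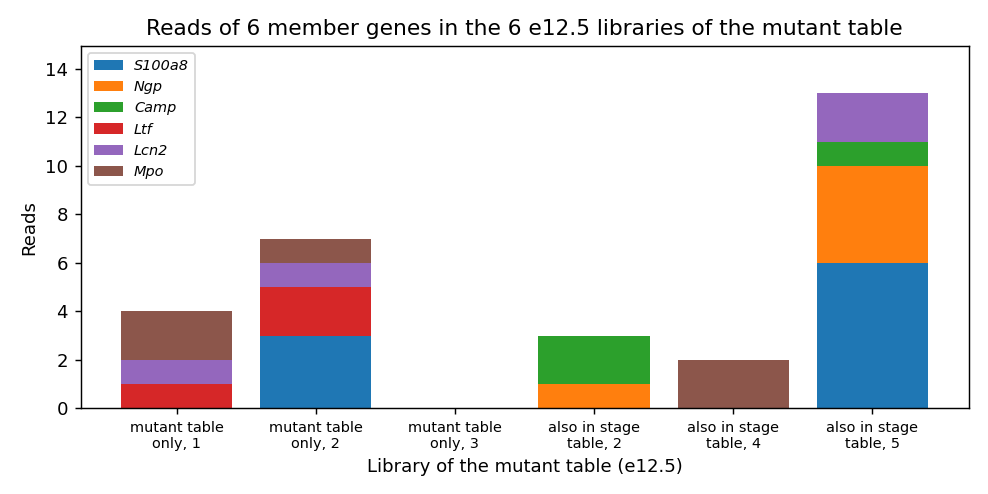
Reads (vertical axis, stacked by gene) of the 6 members with reads in each e12.5 library of the mutant table, first the 3 libraries found in that table alone and then the 3 that are also in the stage table (numbered as there). The sums lie between 0 and 13 reads, and the 2 libraries with most reads belong to different sets.

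Within the p8 pool, nearly all reads of the rare members came from 1 library. The reads were solved from both base means with at most 10 reads allowed in the thoracic and lumbar and 10 in the e12.5 libraries, and 1 solution was found for each gene. Elane had 114 reads in library A, 0 in library B and 0 in library C. It had 1 read in 1 of the 6 libraries of thoracic and lumbar cord and none in the other 5, nor in the 6 e12.5 libraries of the stage table. Mpo had 85 reads in library A, 0 in B and 0 in C, 3 reads in 1 library of thoracic or lumbar cord, and 4 and 2 reads in a pair of e12.5 libraries. The first of these libraries had 2 reads of Mpo in the mutant table, where transcripts and not genes were counted. Library A thus gave 99.2% of the p8 base mean of Elane and 97.0% of that of Mpo, while it holds 16.8% of the summed size factors of the 9 libraries. With the reads of library A left out, and the mean still taken over 9 libraries, the base means would be 0.0405 for Elane and 0.122 for Mpo.

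Among all 2649 genes with a p8 base mean of 1 to 8, at least 95% of it came from library A (with at most 8 reads in the remaining libraries of each table) in 3.7%. Since the choice of the members used the regional difference, this is given as a description. Of 7 genes of the neutrophil lists low enough to be tried, members included, 4 were solved. Prtn3, Stfa2l1 and Gfi1 (the last 2 outside the naming rule) gave no solution with at most 10 reads elsewhere, and a gene with many reads outside libraries A, B and C cannot be solved in this way. Ctsg, the azurophil protease cathepsin G, had 12 reads, all in library A. Stfa2, a stefin of neutrophil cytosol (chosen after its values were seen), had 129 reads in library A and 4 in 1 library of thoracic or lumbar cord. Over the 4 solved genes library A held 340 of 348 p8 reads, and libraries B and C held 0. At the level of library A, Elane would have given 82.0 reads in library B and 7.63 in library C, and Mpo 61.1 and 5.69, whereas a count of 0 allows up to 3 reads. For Ctsg library C is too shallow, with 0.803 reads at that level.

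**Figure D3:**
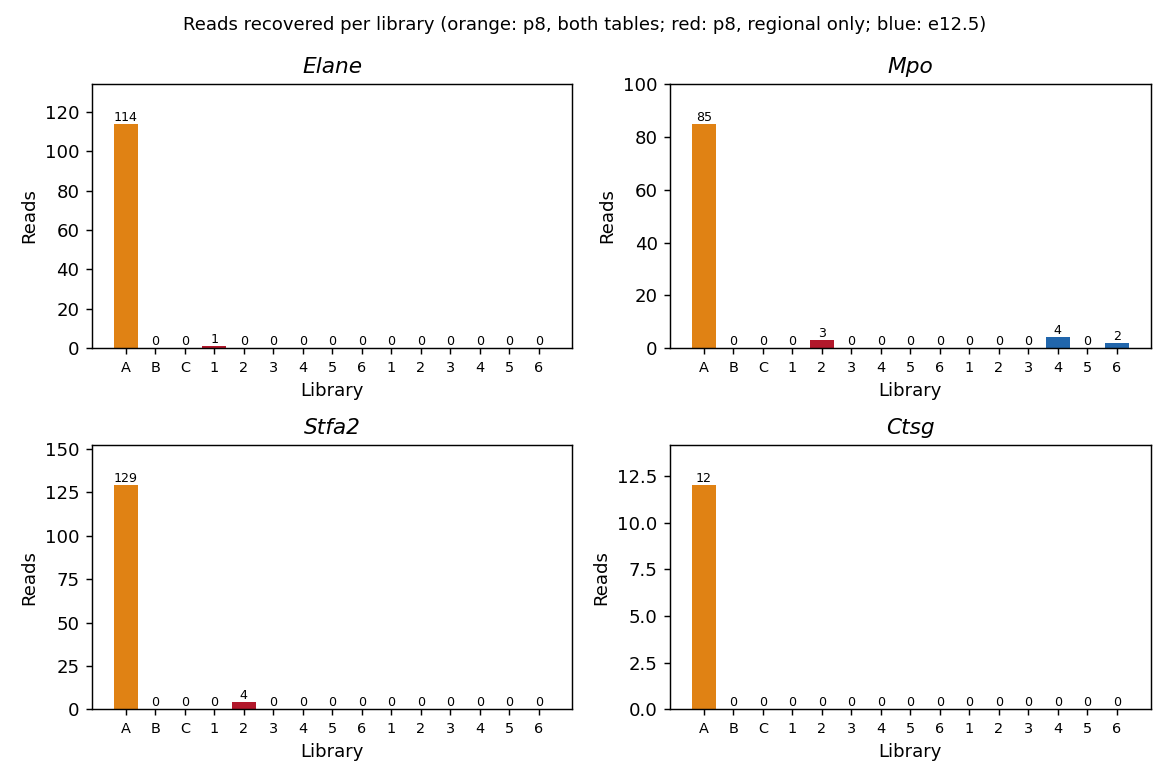
Reads (vertical axis, a scale per gene) of Elane, Mpo, Stfa2 and Ctsg in each library. Orange bars are p8 libraries A, B and C found in both the regional and the stage tables, red bars the 6 other p8 libraries and blue bars the 6 e12.5 libraries of the stage table. Library A holds 114, 85, 129 and 12 reads, and no other library holds more than 4.

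The abundant members have too many reads to be assigned one by one, but their 2 base means limit where these reads can lie. A gene with all of its reads in library A would have a stage base mean 1.652 times its regional base mean, and the factors are 1.788 for library B and 1.912 for library C. Reads of thoracic and lumbar libraries lower this ratio and reads of e12.5 libraries raise it. The ratio was 1.639 for S100a8, 1.641 for S100a9, 1.641 for Ngp, 1.642 for Camp, 1.643 for Ltf and 1.640 for Lcn2. It was 1.634 for Mmp8 and 1.636 for Retnlg, close to the 1.639 of Elane, for which the reads were solved, and 1.719 for Mpo. The 8 abundant members thus kept a nearly constant ratio over levels from 3207 to 56279.

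Within 2% of the factor of library A lay 9 of 10 members, with Mpo as the exception, and 3.43% of the 17308 genes whose p8 base mean reached 1. Over these genes the median ratio was 1.681, with quartiles at 1.040 and 3.278, so the median itself is near that factor while the spread of single genes is wide. As the choice of the members used the regional difference, nothing is read from their count. The ratios leave at most 98.9% (Mmp8) to 99.4% (Ltf) of the p8 base mean of the abundant members to libraries A, B and C together, so at least 0.556% (Ltf) to 1.08% (Mmp8) came from thoracic or lumbar libraries. If e12.5 libraries held none of the reads, libraries A, B and C gave at least 85.5% (Mmp8) to 85.9% (Ltf). How these reads divide among A, B and C is not fixed by 2 means.

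Lists of other neutrophil genes lay near this factor in part. The choice used the difference of neutrophil genes as a list, so these genes are given as a description and nothing is read from their counts. All 5 further specific granule genes lay within 2% of the factor of library A. They include Lyz2 (lysozyme, also made by macrophages) with a p8 base mean of 23757 and a ratio of 1.636, Chil3 with 7737 and 1.643, the surface protein Cd177 with 4420 and 1.638, and Hp (haptoglobin) with 2456 and 1.641. Of gelatinase granule genes, Mmp9 (gelatinase B) had 3705 and 1.648, but also a base mean of 101 in the e12.5 pool of the mutant table. The oxidase subunit Cybb had 3380.3 and 1.631, whereas Pglyrp1 and Cyba lay below the window, at 1.567 and 1.505. Of cytosolic genes, Anxa1 (annexin A1) had 5501 and 1.633, Wfdc21 1537 and 1.639, and Stfa1 72.0 and 1.637, while Alox5ap had 423 and 1.586.

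Surface receptors and transcription factors, several of which microglia and other leukocytes share, were more spread. Trem1 had a p8 base mean of 1137 and a ratio of 1.634, whereas the integrin subunits Itgb2 and Itgam had 3232 and 3054 with ratios of 1.578 and 1.397, and the G-CSF receptor gene Csf3r had 731 with 1.461. Cebpe, a factor required for specific granule genes, had 166 and 1.646. Spi1, which encodes PU.1, had 923 and 1.467, Cebpd had 544 and 1.430, and Irf8 had 354 and 0.912. Of the other genes put on the azurophil list, Serpinb1a had 590 and 1.598 and Ctsc 408 and 0.939. Prtn3 had 11.9 and 5.369, with a base mean of 84.0 in the e12.5 pool. In all, 19 of 37 such genes whose base mean reached 1 lay in the window, 17 below it and 1 above it. Of all genes, 3.43% lay in the window, and as above nothing is read from the count.

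Markers of microglia, oligodendrocytes, endothelium and astrocytes in the p8 pool had lower ratios in most cases. Astrocyte genes had a median of 0.654 but ranged from 0.404 to 15.7. MN genes mostly went the other way, with a median of 10.5 over the 5 whose p8 base mean reached 1 (range 1.276 to 117). Some markers of other blood cells shared the ratio of the members. None of 10 microglia genes lay in the window (median ratio 0.508, range 0.371 to 1.095), with Csf1r at 5824 and 0.765, Cx3cr1 at 1840 and 0.614, and C1qc at 1474 and 0.499. None of 8 oligodendrocyte genes did (median 0.551, range 0.431 to 0.699). Only 3.43% of all 17308 genes lay in the window, so a count of none is near the share of all genes. The globin genes Hba-a2 and Hbb-bs of red blood cells had p8 base means of 525 and 423 and ratios of 0.255 and 0.210. Of 8 monocyte and border macrophage genes, 3 lay in the window (median ratio 1.639, range 0.220 to 2.119), namely Chil3, Ly6c2 and Ccr2. Chil3 is also among the specific granule genes counted above. Ly6c2 had 505 and 1.636 and the chemokine receptor Ccr2 88.2 and 1.645, next to F13a1 with 22.3 and 1.860. Of 11 lymphoid genes, 2 lay in the window. Of eosinophil, basophil and mast cell genes, Siglecf had 25.6 and a ratio of 0.688, Epx had 3.39 and Prg2 1.24, and 4 of 8 were at 0. The part of these other cells in the levels of the members was not tested.

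**Figure D4:**
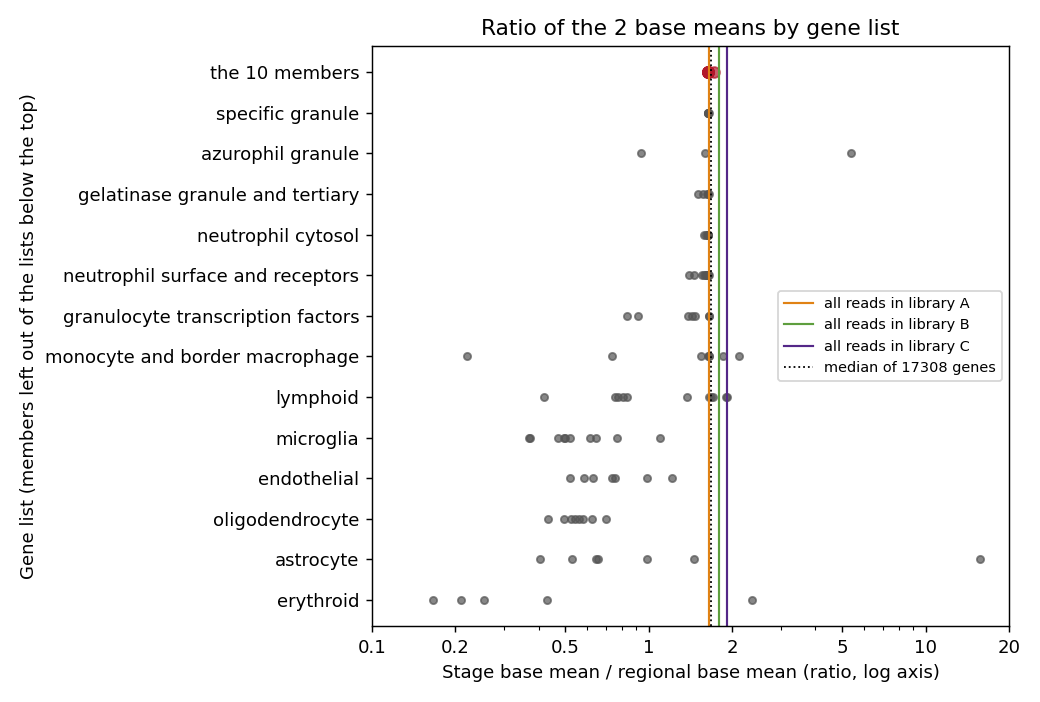
Stage base mean over regional base mean (horizontal log axis) for each gene whose regional base mean reached 1, in rows for the 10 members (red) and 13 lists without them (grey). The lists of MN, platelet and of eosinophil, basophil and mast cell genes are not drawn. Vertical lines give the ratio of a gene with all reads in library A (1.652), B (1.788) or C (1.912) and the median of 17308 genes (1.681). The members lie between 1.634 and 1.719, and microglia genes between 0.371 and 1.095.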

How the data were processed

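On Galaxy, the authors aligned unique single-end reads to GRCm38/mm10 with HISAT, obtained counts by featureCounts and ran DESeq2 (versions not given in the sources used here). The deposited base mean is a signal, the mean over all libraries of a table of read counts divided by size factors. The authors' log2 fold changes, standard errors, Wald statistics and p-values hold their own comparisons and were not used. Symbols came from the GRCm38.p6 annotation (93.0% of genes, 99.2% of transcripts). For a gene with several transcripts the highest base mean was taken.

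Steps per read were estimated from base means up to 0.75 (regional), 1.35 (stage) and 0.9 (mutant), each supported by at least 8 features. Reads of genes with a base mean up to 35 were solved from both tables, allowing at most 10 reads in thoracic and lumbar libraries, 10 in e12.5 libraries and any number in libraries A, B and C, and kept where 1 solution was found. On simulated data all 200 genes drawn within these limits were recovered. How often a gene with more reads elsewhere gives a false single solution was not tested. Total reads per library are not known. Members and lists were chosen with earlier results of these data known. Named genes are the members and the 4 highest others of each list, some of which are not reported here, and genes said in the text to be chosen after their values were seen. The reading by library was chosen after seeing the data. Protein sequences were not used here. Alternatives were summing transcripts, another filter, fold, scale or length, 20 abundant genes left out, and other windows. Python 3.11.15 and numpy 2.4.6 were used.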

Additional observations from a re-analysis of the deposited data

How the results depend on the processing

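All 8 members that passed the filter were over 4-fold higher in the p8 pool than in the e12.5 pool with the median gene as scale, with summed transcripts and at 2-fold and 8-fold, and 9 were without a filter. These 8 passed the filter through the p8 pool alone, which favours such a count. The share of the 10 members in the summed p8 base means was 1.21%, and 2.48% without the 20 other genes of highest base mean. The count near the factor of library A was 8 within 1% and 10 within 5%, against 9 within 2%. Of 20 alternatives 3 moved a value by over 1.5 times. Besides the share above, these were the base means of Elane and Mpo without the reads of library A (0.0405 and 0.122). A further 1 reversed a direction: the p8 over e12.5 ratio of Mpo was 3.74 and turned to 0.112 without these reads. That value rests on 3 p8 reads and has no interval, so a lower level at p8 is not shown. No paired analysis was possible because the tables hold pooled means and no library could be tied to a replicate number, and leaving out replicates was not possible for the same reason. Depth limits the e12.5 values, which rest on 9 reads or fewer per member, and library C.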

Other observations

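Reads of some lymphocyte genes also lay mostly in library A, and the genes solved here were chosen after their values were seen. Igll1, a surrogate light chain gene of pre-B cells, had 188 reads, all of them in library A. Cd3d, of the T-cell receptor complex, had 134 reads in library A, none in the other p8 libraries and 2 in 1 e12.5 library. Nkg7, a granule protein gene of cytotoxic lymphocytes, had 199 reads in library A, 1 in library B, 1 in a library of thoracic or lumbar cord and 9 in 1 e12.5 library. Cd3e differed, with 18 reads in library A and 6 in a single shallow library of thoracic or lumbar cord. The surrogate light chain genes Vpreb1 and Vpreb3 gave no solution, with ratios of stage to regional base mean of 1.896 and 1.919 and e12.5 base means of 1.79 and 16.8 in the mutant table. The more abundant B-cell genes Cd79a, Cd79b and Ms4a1 had ratios between 0.757 and 0.832, below the factor of library A. No comparison between groups was made of these values.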
